A study of Homo sapiens with 15 samples.

Results

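The insulin-like growth factor (IGF) binding proteins are secreted carriers of the growth factors IGF1 and IGF2, and their transcripts were followed here together with that of IGF1R, the receptor through which both ligands signal, while human embryonic stem cells differentiated toward heart cells. The 8 genes, IGFBP1 to IGFBP7 and IGF1R, were selected by gene symbol from the 60605 genes of the expression table. The set was chosen by its measured levels, because IGFBP7 was known to be high in the passaged cells, so the level of IGFBP7 in that arm is given as a description and is not tested. Levels are given as FPKM, the fragments counted for a gene scaled to its exonic length and to the counts of the whole library. Of the 8 genes, 7 were kept by a filter that asked for 1 FPKM or more in any library, which 21206 genes of the whole table passed. IGFBP1 was not kept and therefore lay outside the tests.

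Bulk RNA sequencing had been carried out on 15 libraries of the wild-type cell line H1, a human embryonic stem cell line, with 1 library for each condition and no replicates. In all cells mesendoderm was induced on day 0 with CHIR99021, a WNT activator, and insulin was given on day 1. Libraries of days 0, 1 and 2 preceded the split into arms. From day 2 the arms were NP-ctrl (not passaged, spontaneous differentiation), NP-IWP2 (not passaged, with the WNT inhibitor IWP2) and passaged. Each was sampled on days 3, 5, 7 and 10. IWP2 was applied from day 2 and was no longer in the medium from day 5 onward. Passaged cells were dissociated with EDTA on day 2 and replated, diluted into new wells, without a WNT inhibitor. The ROCK inhibitor Y27632 is described as part of the differentiation experiments of this stage, and whether the replating medium of these libraries held insulin is not given in the sources used here. All libraries came from a single cell line.

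The libraries held between 13254723 and 20250115 counted reads (median 15269132). Over 4 pluripotency markers the summed FPKM was 1220 on day 0 and 13.9 to 23.4 on day 10, and over 5 cardiomyocyte markers it was 424 in NP-ctrl, 1340 for NP-IWP2 and 3280 for passaged cells on day 10. One of the pluripotency markers, SOX2, went against that sum in passaged cells, with 41.56, 16.94 and 4.89 FPKM on days 5, 7 and 10 against at most 0.65 in the static arms, and edgeR called it higher over the 4 days against NP-ctrl (log2 change 5.92, SE 1.01, adjusted p = 0.00945) and NP-IWP2 (5.19, SE 0.98, adjusted p = 0.0299). A ratio below compares 2 libraries and carries the exact (Clopper-Pearson) 95% interval of the counts, which covers counting error only. In bulk RNA, a change in the number of cells that express a gene cannot be told apart from a change in the RNA per cell.

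As background, IGFBP1 to IGFBP6 bind the IGFs with high affinity, keep them from IGF1R or deliver them to it, and have actions of their own at the cell surface. IGFBP7 binds IGFs weakly and also binds insulin and the extracellular matrix, and it is often counted as a related protein. Proteases such as PAPPA and HTRA1 cleave the binding proteins and free the ligand, and stanniocalcins such as STC2 inhibit PAPPA. Signaling through IGF1R and the insulin receptor activates the AKT and MAPK pathways, which support survival and growth of early cardiac cells.

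Some of these genes lie in pairs in the genome (GRCh38). IGFBP2 (chromosome 2, 216632828 to 216664436, plus strand) and IGFBP5 (chromosome 2, 216672105 to 216695549, minus strand) are separated by 7668 bases, and IGFBP1 (chromosome 7, 45888360 to 45893660, plus strand) and IGFBP3 (chromosome 7, 45912245 to 45921874, minus strand) by 18584 bases. IGFBP4 lies on chromosome 17 (40443450 to 40457725, plus strand), IGFBP6 on chromosome 12 (53097436 to 53102345, plus strand), IGFBP7 on chromosome 4 (57030773 to 57110385, minus strand) and IGF1R on chromosome 15 (98648539 to 98964530, plus strand).

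Promoter windows from RefSeq (GRCh38.p14, 250 bases before to 50 bases after the transcription start) were held for 6 of the 8 genes, and IGFBP1 and IGFBP7 were not among them. The 120 bases just before the start are shown for IGFBP4 and IGFBP3, which succeeded each other as the most abundant binding protein in the static arms, and for IGFBP5, which appeared last. The starts are those of RefSeq. That of IGFBP3 lies inside the span given above, since GENCODE release 44 holds an incomplete transcript with a start farther upstream, in an intron of which the IGFBP3 stretch falls. The stretches lie at chr17:40443330-40443449 (plus strand), chr7:45921273-45921392 (minus strand) and chr2:216695550-216695669 (minus strand). Capitals mark exact matches, on either strand, to 3 core promoter motifs that do not overlap one another in these stretches. The motifs were TATAAA, which is the usual form of the box that positions the polymerase. They also included its variant TATATA, and finally GGGCGG, known as the GC box.
IGFBP4: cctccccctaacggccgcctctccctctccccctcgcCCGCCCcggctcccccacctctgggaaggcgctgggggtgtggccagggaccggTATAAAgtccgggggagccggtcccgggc
IGFBP3: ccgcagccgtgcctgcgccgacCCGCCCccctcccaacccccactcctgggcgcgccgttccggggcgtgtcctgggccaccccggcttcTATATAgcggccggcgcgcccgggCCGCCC
IGFBP5: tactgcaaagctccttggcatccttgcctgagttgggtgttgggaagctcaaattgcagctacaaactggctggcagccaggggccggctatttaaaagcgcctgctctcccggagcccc
TATAAA began 29 bases before the start of IGFBP4 and TATATA began 30 bases before the start of IGFBP3. Of 35116 promoter windows of the same length, 11.5% held TATAAA, 3.99% held TATATA and 45.0% held GGGCGG. None of these letters was found in the IGFBP5 window, which says only that they are not in this window. The printed IGFBP5 stretch holds the AT-rich run tatttaaa, and other variants of the box were not searched for. GENCODE release 44 also assigns part of the IGFBP5 window to an exon of DIRC3-AS1 on the opposite strand.

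Which binding protein was most abundant changed with the day and then with the arm. IGFBP2 led on day 0, IGFBP4 on days 1 and 2 and on day 3 in every arm, IGFBP3 on days 5, 7 and 10 in both static arms, and IGFBP7 on days 5, 7 and 10 in passaged cells. By FPKM, IGFBP3 thus led 6 libraries, IGFBP4 5, IGFBP7 3 and IGFBP2 1 of the 15. These leads are a description, since the genes were picked with these levels in view.

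**Figure D1:**
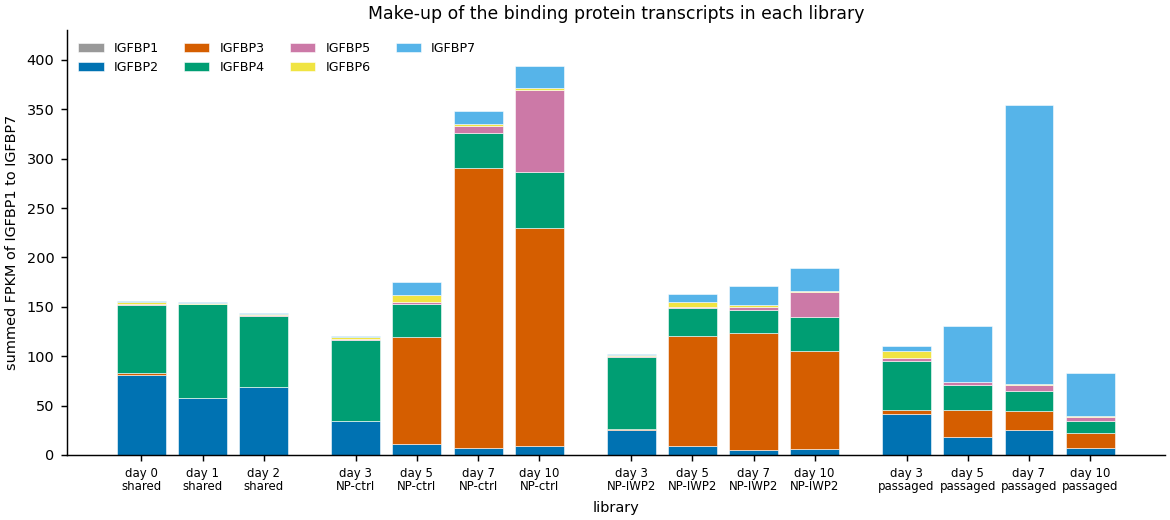
Stacked bars give the FPKM of IGFBP1 to IGFBP7 in each of the 15 libraries (1 bar per library). IGFBP2 and IGFBP4 make up nearly the whole bar through day 3 in the static arms, IGFBP3 the largest part of the static bars from day 5 (108.16 to 283.85 in NP-ctrl), and IGFBP7 the largest part of the passaged bars from day 5, with 283.16 of 354.59 on day 7.

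Adding the 7 binding proteins gave a summed FPKM of 155.77, 154.81 and 143.63 on days 0, 1 and 2. In NP-ctrl the sum was 120.32, 174.6, 348.5 and 393.54 on days 3, 5, 7 and 10. In NP-IWP2 it was 101.71, 162.92, 170.92 and 189.45. In passaged cells it was 110.63, 130.06, 354.59 and 83.19, so the passaged sum stood highest on day 7 and lowest on day 10, whereas both static arms stood highest on day 10. The reads of the 7 genes were 0.0241% to 0.176% of all counted reads.

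The share of the leading protein in this sum was 52.2% for IGFBP2 on day 0 and 61.5% for IGFBP4 on day 1. On day 3 IGFBP4 made up 68.6% in NP-ctrl, 71.9% for NP-IWP2 and 45.4% for passaged cells. IGFBP3 then held 61.9%, 81.4% and 56.2% in NP-ctrl and 68.2%, 69.3% and 52.2% in NP-IWP2 on days 5, 7 and 10. IGFBP7 held 43.1%, 79.9% and 53.1% of the sum in passaged cells on the same days. The passaged library of day 3 was the most mixed at that time, with IGFBP2 at 37.4%, IGFBP6 at 6.87%, IGFBP7 at 4.48% and IGFBP3 at 3.49%.

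Some neighbors in the order could not be separated by counting error. Where the counts allowed a ratio of adjacent binding proteins within a library, its interval lay above 1 for 63 pairs and held 1 for 13. On day 2 the lead of IGFBP4 over IGFBP2 was small (71.87 against 68.78 FPKM, ratio 1.04, interval from 1.00 to 1.09). In passaged cells IGFBP3 and IGFBP4 were level on day 5 (26.62 against 25.99 FPKM, ratio 1.02, interval 0.945 to 1.11) and on day 7 (19.55 against 19.51, ratio 1.00, interval 0.911 to 1.10). Every other lead named above was separated from the next gene beyond counting error. Comparing genes rests on dividing by gene length, and ranking by raw counts gave IGFBP2 the lead in 4 libraries, IGFBP4 in 2, IGFBP3 in 7 and IGFBP7 in 2.

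**Figure D2:**
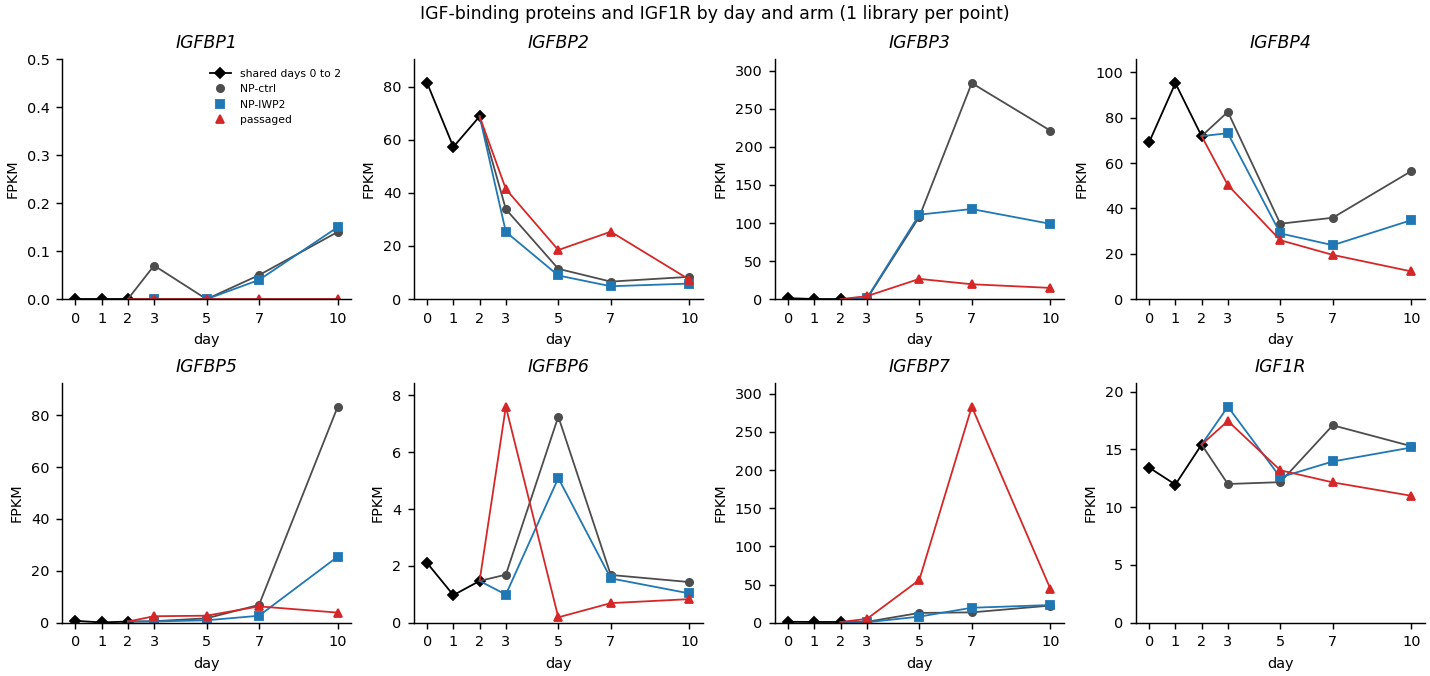
FPKM of each gene (y axis, linear from 0, its own scale per panel) by day of differentiation (x axis). Black diamonds are the shared libraries, gray circles NP-ctrl, blue squares NP-IWP2 and red triangles passaged, each point 1 library. IGFBP2 and IGFBP4 start high, IGFBP3 and IGFBP5 reach their highest values in gray, IGFBP7 peaks in red on day 7 at 283.16, and IGF1R stays between 10.98 and 18.69.

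IGFBP2 and IGFBP4 were the binding proteins of the undifferentiated and mesendoderm stages. IGFBP2, a carrier abundant in fetal tissues and in pluripotent cells, had an FPKM of 81.31, 57.28 and 68.78 on days 0, 1 and 2. It was 33.86, 11.41, 6.60 and 8.40 in NP-ctrl, 25.31, 8.90, 4.85 and 5.86 for NP-IWP2, and 41.43, 18.49, 25.38 and 7.32 for passaged cells on days 3, 5, 7 and 10. From day 2 to day 10 its level was thus 8.19 times lower in NP-ctrl (interval 7.50 to 8.96), 11.7 times lower in NP-IWP2 (10.7 to 13.0) and 9.40 times lower in passaged cells (8.60 to 10.3).

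The course of IGFBP2 in passaged cells differed in order from the static arms on day 7. There it was 1.37 times its day 5 level (interval 1.28 to 1.47), while it was lower on day 7 than on day 5 in NP-ctrl (ratio 0.579, 0.513 to 0.651) and in NP-IWP2 (ratio 0.545, 0.478 to 0.622). On day 7 passaged cells held 3.84 times the IGFBP2 of NP-ctrl (3.45 to 4.29) and 5.23 times that of NP-IWP2 (4.68 to 5.86). Passaged cells were above NP-IWP2 on all 4 days and above NP-ctrl on 3 of 4. By day 10 the difference was smaller, at 0.871 times NP-ctrl (0.771 to 0.985) and 1.25 times NP-IWP2 (1.10 to 1.42).

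IGFBP4, a carrier that mainly holds IGFs away from the receptor and is the preferred substrate of PAPPA, had an FPKM of 69.18, 95.26 and 71.87 on days 0, 1 and 2. It was 82.59, 33.25, 35.89 and 56.50 in NP-ctrl on days 3, 5, 7 and 10. In NP-IWP2 it was 73.16, 28.98, 23.79 and 34.85, and in passaged cells 50.28, 25.99, 19.51 and 12.22. All arms were lower on day 5 than on day 3. Between days 7 and 10 the level was higher again in the static arms (1.57 times in NP-ctrl, interval 1.46 to 1.70, and 1.47 times in NP-IWP2, 1.34 to 1.60) but not in passaged cells (0.626 times, 0.552 to 0.710).

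IGFBP4 was lower in passaged cells than in either static arm on all 4 days, by 1.28 to 4.62 times against NP-ctrl and by 1.12 to 2.85 times against NP-IWP2. NP-IWP2 lay between the 2 other arms on every day. The difference was widest on day 10, where passaged cells held 0.216 times the NP-ctrl level (0.194 to 0.241) and 0.351 times the NP-IWP2 level (0.313 to 0.393).

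IGFBP3 and IGFBP5 were the late carriers of the static cultures. IGFBP3, the main carrier of IGF in blood and a gene of many mesenchymal cells, had an FPKM of 1.26, 0.17 and 0.09 on days 0, 1 and 2. It was 0.34, 108.16, 283.85 and 221.31 in NP-ctrl and 1.15, 111.03, 118.38 and 98.90 in NP-IWP2 on days 3, 5, 7 and 10. In passaged cells it was 3.86, 26.62, 19.55 and 14.76. Passaged cells therefore had the most IGFBP3 on day 3 and the least on each later day.

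Between days 3 and 5 the IGFBP3 level was multiplied by 321 in NP-ctrl (interval 217 to 497), by 96.4 in NP-IWP2 (76.4 to 124) and by 6.90 in passaged cells (6.03 to 7.93). The static arms were level on day 5 (NP-IWP2 over NP-ctrl 1.03, interval 0.994 to 1.06) and separated afterwards, NP-IWP2 holding 0.417 times the NP-ctrl level on day 7 (0.406 to 0.428) and 0.447 times on day 10 (0.434 to 0.460). Passaged cells held 11.5 times the NP-ctrl level on day 3 (7.57 to 18.1), when counts were 241 and 25, and 0.246, 0.0689 and 0.0667 times that level on days 5, 7 and 10. Against NP-IWP2 they were 3.35 times higher on day 3 (2.56 to 4.43) and 4.17, 6.06 and 6.70 times lower later.

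IGFBP5, the most conserved of the carriers and one bound to bone and connective tissue matrix, came up last. Its FPKM was 0.73, 0.12 and 0.45 on days 0, 1 and 2, and 0.59, 1.70, 6.87 and 83.28 in NP-ctrl on days 3, 5, 7 and 10. In NP-IWP2 it was 0.49, 0.93, 2.69 and 25.47, and in passaged cells 2.50, 2.71, 6.30 and 3.90. Only the static arms showed the late step, 12.1 times between days 7 and 10 in NP-ctrl (interval 11.1 to 13.2) and 9.47 times in NP-IWP2 (8.37 to 10.8), against 0.619 times in passaged cells (0.544 to 0.705).

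On day 10 passaged cells held 21.3 times less IGFBP5 than NP-ctrl (19.3 to 23.7) and 6.53 times less than NP-IWP2 (5.86 to 7.28). Before that, the order was different. Passaged cells were higher than NP-ctrl on day 3 (4.23 times, 3.18 to 5.71) and on day 5 (1.60 times, 1.32 to 1.95), were within counting error of it on day 7 (0.917 times, 0.818 to 1.03), and were higher than NP-IWP2 on days 3, 5 and 7. NP-IWP2 lay below NP-ctrl on all 4 days, beyond counting error on 3 of them, and held 0.306 times the NP-ctrl level on day 10 (0.292 to 0.320).

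Markers of other cell types also differed between the arms. The summed FPKM of 6 epicardial and mesenchymal markers (WT1, TBX18, TCF21, COL1A1, COL3A1 and PDGFRA) was 132, 1340, 3190 and 3300 in NP-ctrl, 98.7, 878, 1050 and 988 for NP-IWP2, and 173, 351, 407 and 87.6 for passaged cells on days 3, 5, 7 and 10. Most of this sum was collagen, with COL3A1 at 2351.63 and COL1A1 at 871.2 FPKM on day 10 in NP-ctrl, and its members had different courses. In NP-ctrl PDGFRA was at 83.38 on day 3 and 21.98 on day 10, TCF21 stayed between 5.66 and 7.69, and TBX18 was 7.13 on day 7 and 40.60 on day 10. Between days 7 and 10 the sum was nearly level in both static arms, but its members were not. In NP-IWP2 TBX18 (21.83 and 65.14), PDGFRA (29.59 and 43.32) and TCF21 (2.82 and 6.18) were higher on day 10 than on day 7. WT1, COL1A1 and COL3A1 were lower there on day 10. All 6 had more than 3 counts in both static arms on days 5, 7 and 10, whereas 4 of 6 did in passaged cells on days 7 and 10, with TCF21 at 0 on those days. The 6 liver and yolk sac endoderm markers summed to 645 on day 7 and 4010 on day 10 in NP-ctrl. The sums were 307 and 1180 for NP-IWP2, and 13.5 and 17.9 for passaged cells. AFP (2365.69) and APOA1 (1047.37) made up most of the NP-ctrl sum of day 10, and APOA1 (17.39) nearly all of the passaged one. AFP, APOA1, APOA2 and TTR were higher on day 10 than on day 7 in both static arms. In NP-ctrl SOX17 was 16.68, 11.4, 0.71 and 1.14 on days 3, 5, 7 and 10, and FOXA2 was 3.33, 10.56, 5.11 and 3.8. The part of these cell types in the levels of IGFBP3 and IGFBP5 was not tested.

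IGFBP7 was the binding protein of passaged cells. Its FPKM was 1.19, 1.01 and 0.97 on days 0, 1 and 2, levels that did not differ beyond counting error (day 2 over day 0 0.817, interval 0.508 to 1.31). It was 1.18, 12.83, 13.56 and 22.48 in NP-ctrl, 0.61, 7.99, 19.61 and 23.19 for NP-IWP2, and 4.96, 56.06, 283.16 and 44.16 for passaged cells on days 3, 5, 7 and 10. Passaged cells held the highest level on each of the 4 days, and their day 5, 7 and 10 libraries were the highest 3 of all 15.

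The passaged level rested most on 1 library. It stood at 20.9 times NP-ctrl (interval 18.7 to 23.3) and 14.4 times NP-IWP2 (13.3 to 15.7) on day 7, when 8193 reads were counted, but at 1.96 times (1.78 to 2.17) and 1.9 times (1.74 to 2.09) on day 10. On day 3 the ratios were 4.21 (2.90 to 6.23) and 8.08 (4.79 to 14.5), and on day 5 they were 4.37 (3.91 to 4.89) and 7.02 (6.09 to 8.12). Within the arm the level was 5.05 times higher on day 7 than on day 5 (4.79 to 5.33) and 6.41 times lower on day 10 than on day 7 (6.05 to 6.80). There was no second library of passaged cells on day 7 with which to compare it.

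The static arms also had more IGFBP7 than before, with 23.1 times the day 2 level in NP-ctrl on day 10 (16.6 to 33.0) and 23.9 times in NP-IWP2 (17.2 to 34.0). The order of the 2 static arms changed, NP-IWP2 being lower on day 5 (ratio 0.622, 0.525 to 0.737), higher on day 7 (1.45, 1.27 to 1.65) and level on day 10 (1.03, 0.924 to 1.15). The cardiomyocyte markers, whose sum in passaged cells was 14.6, 456, 2700 and 3280, were higher on day 10 than on day 7, whereas IGFBP7 was lower. Endothelial cells are a known source of IGFBP7. The summed FPKM of 5 endothelial markers was 42.3, 16.7, 31.7 and 121 in passaged cells on days 3, 5, 7 and 10, between 101 and 165 in the static arms on days 5, 7 and 10, and made up mostly of KDR, a receptor that progenitors also carry (40.66, 11.89, 29.71 and 119.27 in passaged cells). Of the other markers of that list, PECAM1 was at 0.02, TIE1 at 0.1, CDH5 at 0.18 and TEK at 1.72 FPKM in the passaged library of day 7. TEK was at 4.68 in that of day 5. In NP-ctrl and NP-IWP2 on day 7, PECAM1 was at 0.07 and 0.03, TIE1 at 0.08 and 0.32, and CDH5 at 0.21 and 0.51. TEK was at 30.81 and 18.57 in these static libraries. The part of cardiomyocytes and endothelial cells in the level of IGFBP7 was not tested. The passaged library of day 10 also had the highest mitochondrial share of counts of the 15, at 10.31%, against 6.14% on day 7, and its part in the level of IGFBP7 was not tested.

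IGFBP7 shares 386 bases of its span with POLR2B on the opposite strand, and an antisense gene, IGFBP7-AS1, lies within it. Use of strand in the counting was not stated, so reads of opposite strands cannot be told apart there. IGFBP7-AS1 had 0 to 12 counts per library and POLR2B 2087 to 4395, against 16 to 8193 for IGFBP7.

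IGFBP6 and IGFBP1 were low throughout. IGFBP6, a carrier that prefers IGF2, had an FPKM of 2.10, 0.97 and 1.47 on days 0, 1 and 2, and 1.69, 7.25, 1.68 and 1.43 in NP-ctrl on days 3, 5, 7 and 10. It was 0.99, 5.09, 1.56 and 1.03 for NP-IWP2 and 7.60, 0.19, 0.69 and 0.83 for passaged cells. Each arm thus had a single high day, which was day 5 in the static arms and day 3 in passaged cells.

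On that day the level of IGFBP6 was 5.18 times that of day 2 in passaged cells (interval 3.62 to 7.56), and in the static arms it was 4.29 times (NP-ctrl, 2.98 to 6.32) and 5.14 times (NP-IWP2, 3.09 to 9.04) that of day 3. By day 5 the passaged library held 4 counts, 39.1 times less than on day 3 (14.9 to 145). The counts behind IGFBP6 were 4 to 153 per library. IGFBP1, a carrier made by liver and decidua that responds to insulin, had 0 to 4 counts in every library and at most 0.15 FPKM, so no ratio is given.

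IGF1R, the receptor, was the steadiest of the 8 genes. Its FPKM was 13.42, 11.95 and 15.41 on days 0, 1 and 2. It was 12, 12.16, 17.08 and 15.27 in NP-ctrl, 18.69, 12.58, 13.95 and 15.16 for NP-IWP2 and 17.45, 13.19, 12.14 and 10.98 for passaged cells on days 3, 5, 7 and 10. The highest library was 1.70 times the lowest, against 7.80 times for IGFBP4 and 3150 times for IGFBP3, although the lowest IGFBP3 library held only 8 counts. The passaged level was lower on each later day and stood at 0.719 times NP-ctrl (0.681 to 0.760) and 0.724 times NP-IWP2 (0.686 to 0.764) on day 10.

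Days 0 to 2 preceded the arms. None of the 7 genes differed by at least 1 on the log2(FPKM + 1) scale between day 1 and day 0, against 6.74% of the 21206 genes. By day 2 only IGFBP3 was past that size (lower by 14.6 times, from 98 to 8 counts), 1 of 7 against 11.7% of all genes. IGFBP5 went from 80 counts on day 0 to 14 on day 1 and 59 on day 2, at under 1 FPKM throughout.

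Between arms, differences of at least 1 on the log2(FPKM + 1) scale (with 1 library a side and no test) were counted for each day. In passaged cells against NP-ctrl, 4 of the 7 genes were past this size on day 3 (background 8.49% of 21206 genes), 3 on day 5 (8.16%), 3 on day 7 (12.6%) and 3 on day 10 (17.4%). Against NP-IWP2 the numbers were 4 (8.70%), 3 (7.51%), 3 (6.69%) and 3 (10.1%). IGFBP7 was among them on days 3, 5 and 7 in both comparisons, as its choice fixed. The background shares, here and in the other counts of this size, include genes that peak near 1 FPKM. Such genes can hardly reach this size on that scale, so the shares are not matched to the levels of these 7 genes.

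The direction of these differences changed between day 3 and the later days. On day 3 the 4 genes were IGFBP3, IGFBP5, IGFBP6 and IGFBP7, all higher in passaged cells, in both comparisons. On day 5 IGFBP7 was higher and IGFBP3 and IGFBP6 lower, on day 7 IGFBP2 and IGFBP7 were higher and IGFBP3 lower, and on day 10 IGFBP3, IGFBP4 and IGFBP5 were lower with none higher. Both comparisons share the passaged libraries, so they are not independent of each other.

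NP-IWP2 and NP-ctrl were closer. None of the 7 genes was past a log2 difference of 1 on day 3 (background 4.15%) or day 5 (2.97%). On day 7 (7.26%) and on day 10 (9.35%) the same 2 genes were, IGFBP3 (-1.25 and -1.15) and IGFBP5 (-1.09 and -1.67), both lower in NP-IWP2. IGFBP2 and IGFBP4 were lower in NP-IWP2 on all 4 days and beyond counting error each time, by 1.28 to 1.43 times and by 1.13 to 1.62 times.

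**Figure D3:**
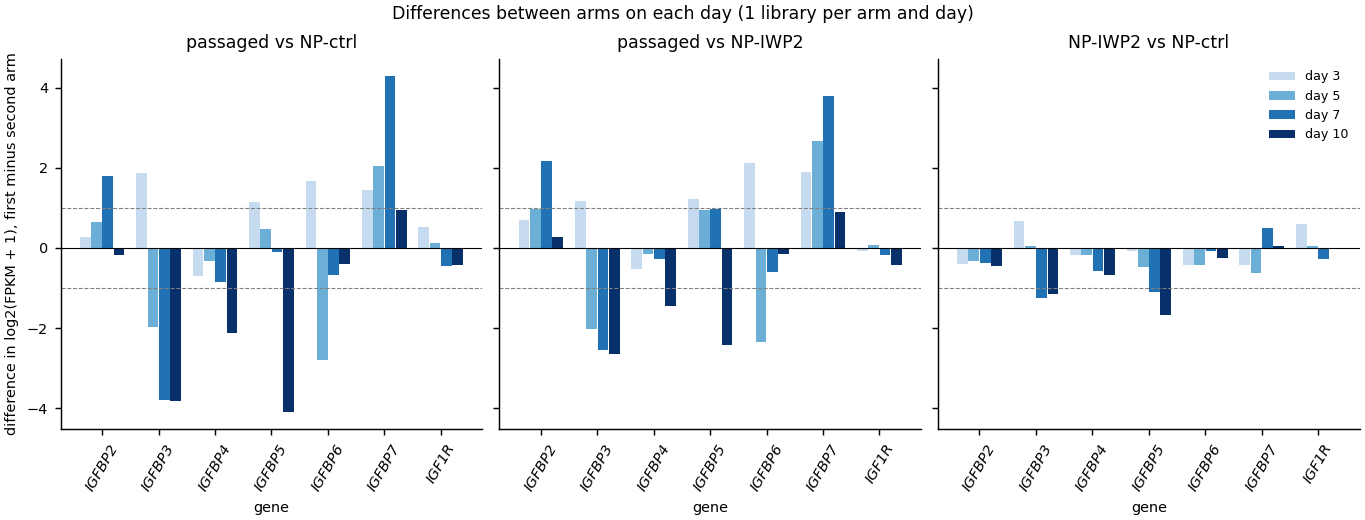
Bars give the difference in log2(FPKM + 1) between 2 arms (first minus second) for 7 genes, with a shade of blue for each of days 3, 5, 7 and 10 and dashed lines at 1 and -1. IGFBP3 stands above 0 on day 3 and near -4 on days 7 and 10 for passaged against NP-ctrl, IGFBP7 reaches 4.29 on day 7, and no bar for NP-IWP2 against NP-ctrl passes -1.67.

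A test across the 4 days was made with edgeR's quasi-likelihood model (arm and day as terms, 12 libraries, Benjamini-Hochberg adjustment over 21206 genes). It asks whether an arm stood apart by a similar factor on every day, and since each day is 1 library of 1 culture, its p-values measure only the spread between these libraries. IGFBP7 was left out of it where passaged cells were compared. The other genes were also picked with the levels of all libraries in view, so their calls and p-values are given as a description. For passaged cells against NP-ctrl, 1 of the other 6 genes was called, against 4.40% of all genes. It was IGFBP4, lower by a log2 change of -0.96 (SE 0.23, adjusted p = 0.0406) and lower on 4 of 4 days. The call was lost without day 5, day 7 or day 10 (log2 change -1.18, -1.05 and -0.64), with limma (adjusted p = 0.0976) and with only the 2 arms in the fit (adjusted p = 0.214), and the adjusted p ranged from 0.000639 to 0.214 over 9 alternatives.

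IGFBP2 was at 0.79 (SE 0.32, adjusted p = 0.198) in the same edgeR comparison, IGFBP3 at -1.81 (SE 1.05), IGFBP5 at -0.01 (SE 0.80), IGFBP6 at -0.45 (SE 0.96) and IGF1R at -0.04 (SE 0.17), with none called. For IGFBP3 the outcome changed when day 3 was left out and, against NP-ctrl, also with no filter. With day 3 left out, edgeR called it lower in passaged cells, at -3.20 against NP-ctrl (adjusted p = 0.000437, range over the alternatives 0.000437 to 0.870) and at -2.35 against NP-IWP2 (adjusted p = 0.00389, range 0.00389 to 0.960). Day 3 was the only day on which the difference had the opposite sign, so leaving it out largely fixes this outcome, and the same setting called 2373 and 675 genes of the table in place of 933 and 282. The fit with no filter also called IGFBP3 against NP-ctrl (adjusted p = 0.0028), and no other alternative did in either comparison.

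For passaged cells against NP-IWP2, edgeR called 0 of the 6 genes, against 1.33% of all genes. An unadjusted p under 0.05 was held by 2 of the 6, IGFBP2 and IGFBP4, against 2726 of 21206 over all genes. IGFBP2 was at 1.25 (SE 0.32, adjusted p = 0.0974, edgeR) and higher on 4 of 4 days, and IGFBP4 at -0.51 (SE 0.23, adjusted p = 0.385) and lower on 4 of 4. DESeq2 called 1 of the 6, IGFBP2, and limma 0. For NP-IWP2 against NP-ctrl, edgeR called 0 of 7 genes, against 0.0189% of all genes, and DESeq2 and limma called 0 as well. With edgeR 0 of the 7 had an unadjusted p under 0.05, against 1009 of 21206 over all genes. IGFBP7 was at -0.27 in that comparison (SE 0.46, adjusted p = 0.975).

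The other genes of the system comprised 33 genes in a list drawn up with results of these data known. Of them, 29 passed the filter on low values. For passaged cells against NP-ctrl, edgeR called 2 higher (1.64% of all genes were called higher) and 0 lower (2.76%). Against NP-IWP2 it also called 2 higher (0.415%) and 0 lower (0.915%). The median log2 change of the 29 was 0.02 and 0.01. Both times the called genes were STC2 and KAZALD1. For NP-IWP2 against NP-ctrl it called 0 of 29 in either direction (0.00943% of all genes were called higher and 0.00943% lower). In that comparison 3 of the 29 had an unadjusted p under 0.05, against 1009 of 21206 over all genes.

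Among the ligands, IGF2 alone passed the filter on low values. IGF1 was at most 0.03 FPKM and INS at most 0.23 in any library. IGF2, the main fetal IGF, was 0.00, 0.01 and 0.09 FPKM on days 0, 1 and 2, then 2.56, 35.23, 79.60 and 112.06 in NP-ctrl, 2.86, 31.39, 23.22 and 25.94 for NP-IWP2, and 5.73, 2.16, 4.61 and 1.35 for passaged cells on days 3, 5, 7 and 10. As with IGFBP3, passaged cells were highest on day 3 (2.24 times NP-ctrl, interval 1.93 to 2.62) and lowest afterwards, 82.7 times below NP-ctrl on day 10 (69.5 to 99.2).

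Over the 4 days the IGF2 change was -3.22 against NP-ctrl (SE 1.10, adjusted p = 0.13, edgeR) and -1.94 against NP-IWP2 (SE 1.03, adjusted p = 0.48, edgeR), neither called. Against NP-ctrl it was called by DESeq2 (-3.24, adjusted p = 0.0143), and both comparisons were called with no filter and with day 3, the only day of opposite sign, left out (-4.72 and -3.34). The other alternatives did not call it (ranges over all of them 4.71e-08 to 0.567 and 0.00122 to 0.837).

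The other receptors had wider ranges than IGF1R. IGF2R, which clears IGF2 from the cell surface, ranged from 5.89 to 14.06 FPKM with a median of 11.22. INSR, the insulin receptor, ranged from 2.45 to 5.39 with a median of 4.22, and edgeR called neither in any comparison of arms. INSRR, a receptor related to INSR, was at 3.30, 7.17 and 3.98 FPKM on day 3 in the NP-ctrl, NP-IWP2 and passaged libraries and at most 0.44 in every other library.

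**Figure D4:**
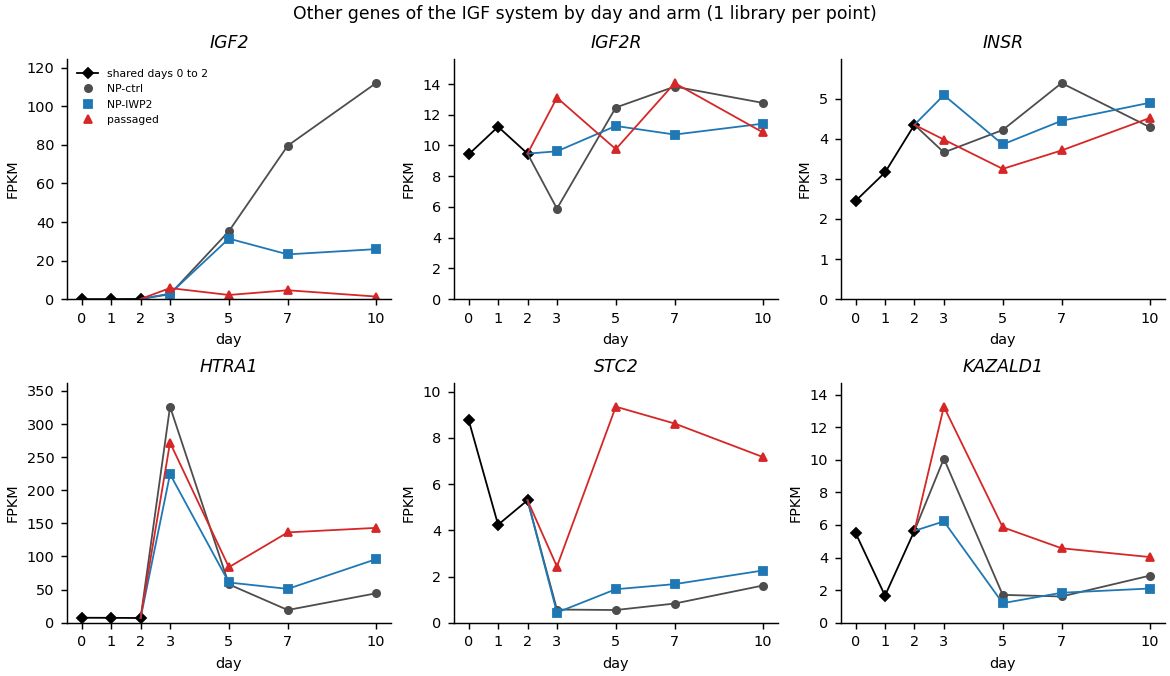
FPKM (y axis, linear from 0) of 6 other genes of the system by day (x axis), with the same symbols as in the plot of the binding proteins, 1 library per point. IGF2 climbs to 112.06 in NP-ctrl and stays at or below 5.73 in passaged cells, while STC2 stands at 7.17 to 9.35 in passaged cells on days 5 to 10 and at or below 2.26 in the static arms.

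Of the genes that act on the binding proteins, STC2 stood apart in passaged cells on every day. STC2, a secreted inhibitor of the IGFBP4 protease PAPPA, had an FPKM of 8.77, 4.24 and 5.30 on days 0, 1 and 2. It was 0.57, 0.55, 0.83 and 1.61 in NP-ctrl, 0.44, 1.45, 1.67 and 2.26 for NP-IWP2, and 2.43, 9.35, 8.62 and 7.17 for passaged cells. The lowest passaged value was above the highest static value. STC2 was higher in passaged cells by 2.94 against NP-ctrl (SE 0.34, adjusted p = 0.00116, edgeR), a call kept in all 9 alternatives (range 9.3e-15 to 0.0424). It was higher by 2.37 against NP-IWP2 (SE 0.33, adjusted p = 0.00717, edgeR), where the call was lost without day 5 (2.24) or day 7 (2.34) and with limma (range 2.37e-10 to 0.0802).

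KAZALD1, a secreted relative of the binding proteins, was 13.26, 5.86, 4.57 and 4.03 FPKM in passaged cells, 10.07, 1.71, 1.61 and 2.89 in NP-ctrl and 6.22, 1.20, 1.84 and 2.10 in NP-IWP2 on days 3, 5, 7 and 10. It was higher in passaged cells on 4 of 4 days in both comparisons, by 1.08 (SE 0.27, adjusted p = 0.0441, edgeR; range over the alternatives 0.00168 to 0.29) and 1.5 (SE 0.27, adjusted p = 0.0245, edgeR; range 1.2e-05 to 0.147). Both calls were lost without day 5 (0.82 and 1.22), day 7 (0.92 and 1.53) or day 10 (1.22 and 1.62), and with limma (adjusted p = 0.0924 and 0.107), and the call against NP-ctrl also with only the 2 arms in the fit (adjusted p = 0.201).

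HTRA1, a serine protease that cleaves binding proteins, was the most abundant protease of the list. It stood at 7.11 to 7.52 FPKM through day 2 and at 326.17, 224.37 and 271.86 on day 3 in the NP-ctrl, NP-IWP2 and passaged libraries. On days 5, 7 and 10 it was 57.89, 19.18 and 44.41 in NP-ctrl, 60.74, 51.07 and 95.92 for NP-IWP2, and 83.86, 136.37 and 143.18 for passaged cells. Passaged cells were highest on each of these later days. Over the 4 days HTRA1 was at 1.18 against NP-ctrl (SE 0.44, adjusted p = 0.16, edgeR) and not called. It was called there by DESeq2 (adjusted p = 0.0433), with no filter and without day 3 (1.76, adjusted p = 0.0174, edgeR). Day 3 was the only day of opposite sign, and the range over the alternatives was 0.000366 to 0.648. Against NP-IWP2 HTRA1 was at 0.849 (SE 0.415, adjusted p = 0.431, edgeR), not called, and called in 1 of the 9 alternatives (range 0.0213 to 0.805).

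PAPPA, the protease of IGFBP4, was at most 5.25 FPKM, reached on day 10 in NP-ctrl, and stood at 0.12 on that day in passaged cells. PAPPA2 was at most 1.36. IGFALS, the subunit that joins IGFBP3 and IGF in the blood complex, stayed between 0.05 and 0.32. Of the intracellular genes, SHC1 had the highest median (36.52 FPKM, range 12.15 to 69.15), and edgeR called none of this group in any comparison of arms, while PIK3R1, IRS1, FOXO1 and GRB10 were each called in 1 or 2 of the 9 alternatives of at least 1 comparison. IGFBPL1, another relative of the binding proteins, had 14.74, 137.46 and 55.18 FPKM on days 0, 1 and 2 and at most 17.97 later, and TMEM219, a receptor for IGFBP3, had 18.42 to 36.63.

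For each of the 7 genes the 3 most similar genes were sought among 7650 others that reached 10 FPKM in any library, by Pearson correlation of log2(FPKM + 1) over the 15 libraries. These libraries form 1 time course, so the points are not independent, and correlations are given as a description. IGFBP3 was followed most closely by COL3A1, a fibrillar collagen (0.984), AMOT, an angiostatin-binding protein (0.977), and KCTD12 (0.975). IGFBP7 was followed by PRSS23, a secreted protease (0.970), MECOM, a transcription factor (0.957), and THBS1, a matrix glycoprotein (0.951).

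PRSS23 showed the same single high library as IGFBP7, with 1.02, 17.95, 83.93 and 23.37 FPKM in passaged cells and at most 8.04 elsewhere. THBS1 had 1.28, 17.97, 32.96 and 15.33 in passaged cells and at most 12.22 elsewhere. MECOM reached 17.13 on day 7 in passaged cells and 9.68 on day 10 in NP-IWP2. COL3A1 was at most 0.08 FPKM through day 3 outside passaged cells, where it was 1.36 on day 3, and reached 2359.96 in NP-ctrl on day 7.

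**Figure D5:**
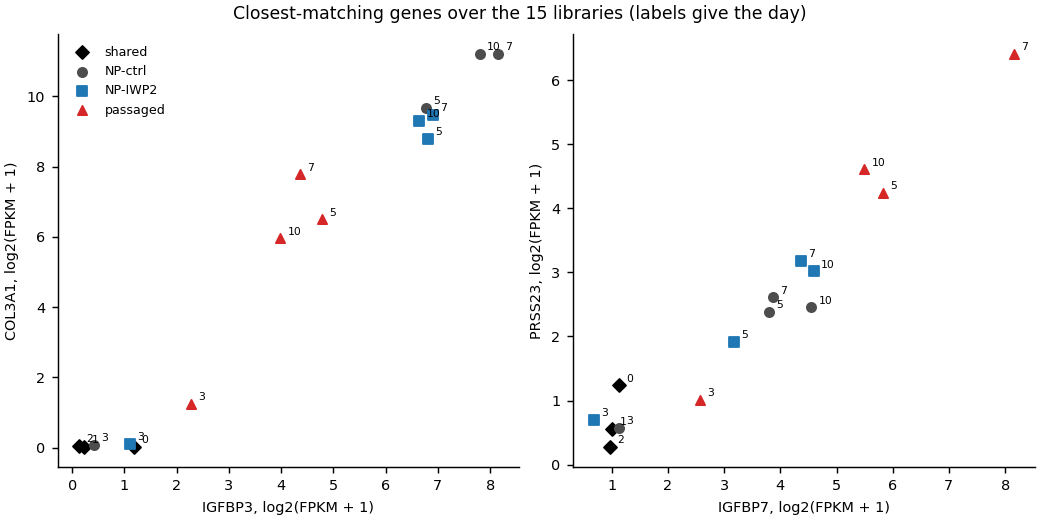
Each point is 1 library, placed by log2(FPKM + 1) of IGFBP3 and COL3A1 (left) and of IGFBP7 and PRSS23 (right), with the day beside it and the arm given by color and symbol. IGFBP3 and COL3A1 are low together through day 3 and highest in NP-ctrl on days 7 and 10, and the passaged library of day 7 stands apart at the upper right for IGFBP7 and PRSS23.

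For IGFBP2 the closest genes were NEFM, a neurofilament subunit (0.970), DPP3, a peptidase (0.946), and POP7, a subunit of RNase P (0.945). For IGFBP4 they were PCK2, a mitochondrial enzyme of gluconeogenesis (0.971), PLEKHG6 (0.955) and CAPG, an actin-capping protein (0.936). For IGFBP5 they were SLC34A2, a phosphate transporter (0.942), OGFRL1 (0.928) and G0S2, an inhibitor of lipolysis (0.927), which all had their highest level on day 10 in NP-ctrl, as IGFBP5 did.

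IGFBP6 and IGF1R had no close match. The highest correlations were 0.832 for LYN, a SRC family kinase, 0.812 for the row listed as MIR1281 and 0.789 for ITM2C with IGFBP6, and 0.821 for LRP6, a WNT co-receptor, 0.797 for CASP6 and 0.788 for TCFL5 with IGF1R. By rank (Spearman), LYN and LRP6 remained the closest to these 2 genes and MECOM became the closest to IGFBP7 (0.974). For IGFBP5, SLC34A2 dropped to place 191 (0.844), OGFRL1 to 73 and G0S2 to 133. COL3A1 was at place 5 for IGFBP3, NEFM at 13 for IGFBP2 and PCK2 at 5 for IGFBP4, with TEK, DBNDD1 and LAMC3 first.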

How the data were processed

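RNA had been collected from 15 samples of H1 cells, and libraries were prepared with a SMRTbell kit. According to the submitters' processing notes, reads were trimmed with Cutadapt (1.9.1), aligned to hg38 with HISAT2 (2.0.1) and counted per gene with HTSeq (0.6.1). The kit is for long reads and these tools are for short reads, so which reads were counted is unclear, and levels compared between genes carry that doubt. Use of strand was not given in the sources used here. The deposited counts are raw reads per gene. The authors' FPKM values divide them by exonic length and library total, and recomputed values differed by at most 0.005. Of the table's genes, 60463 were matched to GENCODE release 44, with identical coordinates for all 8 genes here.

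Genes that reached 1 FPKM in any of the 15 libraries were kept. Arms were compared with edgeR (4.0.16, R 4.3.3, TMM, quasi-likelihood, arm and day as terms), checked first on simulated data. SE is the log2 change divided by the root of F. DESeq2 (1.42.0) and limma (3.58.1) on log2(FPKM + 1) were alternatives. A gene was called at an adjusted p under 0.05. Ratios compare single libraries, with exact 95% intervals from binomial counts (scipy). With both counts at or under 3, no ratio was formed. Groups came from the sample titles.

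Named genes were all 8 genes, the 3 most correlated genes of each, all ligands and receptors of the system, and of its other roles those called by edgeR or with the highest mean. IGFBPL1, PAPPA, PAPPA2, IGFALS, INSRR and TMEM219 were in the list and were in part named after their values were seen. The genes and lists were chosen with earlier results of these data known. The groups hold 1 library each and no replicates.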

Additional observations from a re-analysis of the deposited data

Results flagged for a closer look

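IGFBP3, IGFBP5 and IGFBP6 differed between passaged and static cells in opposite directions on different days, and the difference between days was not tested, since each arm has 1 library a day. For IGFBP3 the log2(FPKM + 1) difference of passaged cells from NP-ctrl was 1.86 on day 3 and -1.98, -3.79 and -3.82 on days 5, 7 and 10, and from NP-IWP2 it was 1.18 on day 3 and -2.02, -2.54 and -2.66 later. For IGFBP5 it was 1.14 on day 3 and -4.10 on day 10 against NP-ctrl, and 1.23 and -2.43 against NP-IWP2. For IGFBP6 it was 1.68 on day 3 and -2.79 on day 5 against NP-ctrl, and 2.11 and -2.36 against NP-IWP2, with 4 counts behind the passaged value of day 5. The passaged library of day 3 also had the lowest mitochondrial share of counts of all 15, at 1.53%, against 3.71% to 10.31% in the others; its part in these values was not tested.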

How the results depend on the processing

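The number of genes of the family called for passaged cells against NP-ctrl (1 of 6) became 0 with limma, 0 with only the 2 arms compared, 3 with no filter and 0 to 2 when a day was left out. Against NP-IWP2 (0 of 6) it became 1 with DESeq2, 2 with no filter and 0 to 1 when a day was left out. For NP-IWP2 against NP-ctrl (0 of 7) it became 1 with no filter and 1 with only the 2 arms compared, IGFBP5 in both cases. The cause of these changes was not tested. Over all genes the calls were 933, 282 and 4 in the 3 comparisons, 2150, 886 and 59 with DESeq2, 163, 6 and 0 with limma, 2571, 1368 and 372 with no filter, 109, 166 and 278 with 2 arms, and 133 to 2373, 13 to 675 and 0 to 35 when a day was left out. Of 28 gene-by-day differences, 13, 13 and 4 were past 1 on the log2 scale. By day, the share of all genes past 1 was 8.16% to 17.4%, 6.69% to 10.1% and 2.97% to 9.35%. The first 2 counts include IGFBP7 on days 3, 5 and 7, as its choice fixed. At a size of 2 the counts were 7, 9 and 0, the first 2 again with IGFBP7 among them. No share of all genes was computed for that size, so these counts are not read as a result about the family. When a day was left out, the counts past 1 were 9 to 10, 9 to 10 and 2 to 4, since fewer days were counted. No share of all genes was computed for these either. Ranked by raw counts, IGFBP2 led 4 libraries in place of 1 and IGFBP4 led 2 in place of 5. IGFBP3 led 7 in place of 6 and IGFBP7 2 in place of 3. The library that changed between them was the passaged one of day 5, with 1857 counts for IGFBP3 and 1652 for IGFBP7. Of 252 recomputed daily differences (another pseudocount, TPM or TMM scaling), 237 stayed on the same side of 1, 15 passed it and 0 reversed. The arms were matched by day, and day was a term of every fit, with 1 library per arm and day. IGFBP6, with 4 to 153 counts, and IGFBP1, with 0 to 4, are limited by depth.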
